A study of Mus musculus with 10 samples.

Results

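Mex3a and 9 other genes known from the stem cells of the intestinal crypt were followed across 10 subcutaneous CT26 tumors that were removed before treatment. The genes were taken by name from the count table, in which all 10 members (Mex3a, Lgr5, Ascl2, Axin2, Sox9, Msi1, Prom1, Reg1, Lgr4 and Rnf43) were found among 36009 rows. A filter on low counts left 16041 genes for testing and 8 of the 10 members, since Lgr5 and Ascl2 did not pass it. CT26 is a mouse colorectal carcinoma cell line. Each library was made from polyA RNA of the piece of tumor resected from a female, wild-type BALB/c mouse, and the residual tumor was then covered with a hydrogel releasing poly(I:C), a synthetic double-stranded RNA. Of the 10 mice, 6 later cleared the tumor (responders) and 4 showed undelayed growth (non-responders). Below, group levels are mean ± SD over these 6 and 4 tumors. All 10 pieces were untreated when they were taken, and the age of the mice was not given in the labels. Libraries held 23374649 to 38042544 estimated counts. The numbers of the tumors within a group are names only.

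In the gut, crypt stem cells are maintained by Wnt ligands, which stabilize beta-catenin and switch on genes through TCF factors. R-spondins bound to Lgr4 or Lgr5 raise this signal by removing the ubiquitin ligases Rnf43 and Znrf3, which otherwise clear Wnt receptors from the cell surface. Axin2 and Rnf43 are themselves targets of the pathway and dampen it, Ascl2 is the transcription factor of the Lgr5+ stem cell, and Mex3a is an RNA-binding ubiquitin ligase that marks a slowly dividing subset of these cells.

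The members were chosen by name with measured values in view, those of this same contrast of responders against non-responders, so their differences are given as a description, with no test. For Mex3a and Reg1, all 6 responders lay below all 4 non-responders. Both were past an adjusted p of 0.05 in the edgeR fit, as were 8.06% of all genes tested (3.35% as lower and 4.71% as higher in responders). For the remaining 8 members the groups overlapped. Over all genes tested, the groups did not overlap for 10.4% (4.55% lower and 5.84% higher in responders). Of the 8 members tested, 5 had a lower and 3 a higher estimate in responders, with a median log2 fold change of -0.05, against -0.01 over all genes.

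**Figure D1:**
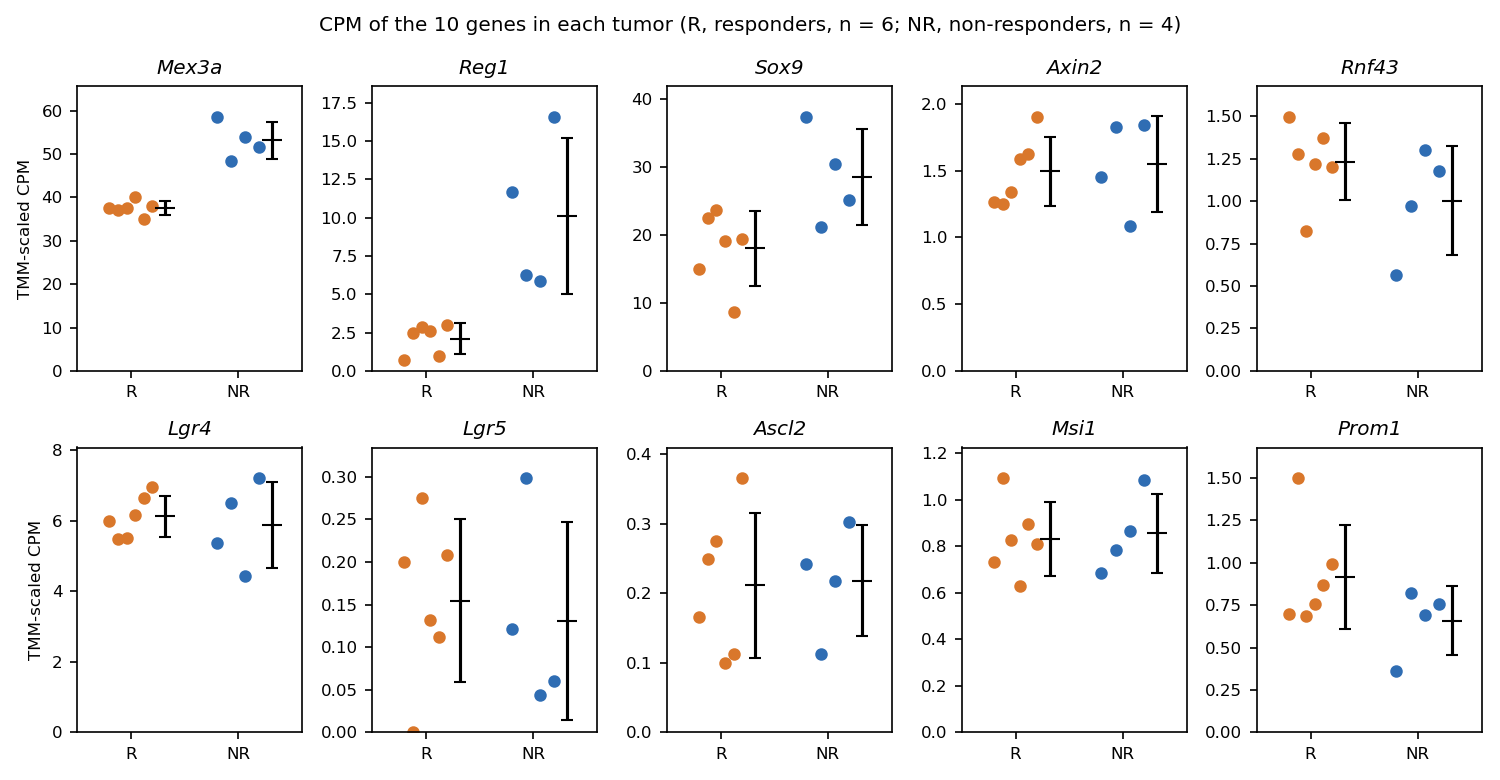
TMM-scaled counts (CPM, vertical axes from 0) of the 10 genes in each tumor, with responders (R, n = 6) in orange and non-responders (NR, n = 4) in blue; the black bars give mean ± SD. For Mex3a the responders lie between 35.1 and 40.0 CPM and the non-responders between 48.4 and 58.6 CPM, while for Axin2, Rnf43, Lgr4, Lgr5, Ascl2, Msi1 and Prom1 the groups overlap.

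Mex3a (ENSMUSG00000074480, chromosome 3, 88532395 to 88541396, plus strand) had the highest mean level per length over the 10 tumors and the least spread of the members within groups. In non-responders alone Reg1 was higher per length, at 11.2 CPM per kb against 9.20 for Mex3a. The lowest, median and highest responders were at 35.1, 37.5 and 40.0 CPM, where CPM is the count scaled to a common library size. Non-responders 1 to 4 were at 58.6, 48.4, 54.0 and 51.7 CPM. The nearest tumors of the 2 groups, responder 4 and non-responder 2, were thus separated by a gap wider than the whole range of the responders. The group values were 37.5 ± 1.58 CPM (SD, n = 6), against 53.2 ± 4.29 CPM (SD, n = 4), which gave a log2 fold change of -0.50 (SE 0.06), or 1.42-fold higher in non-responders. Of the 16041 genes tested, Mex3a had the smallest p in this contrast (rank 1), which describes how far it stood out and is no separate evidence. It stayed past the threshold in 9 of 10 fits that left out 1 tumor. Without non-responder 4, the log2 fold change was -0.52 (SE 0.06), and no gene in the table passed. In the annotation, exons of Mex3a share 82 bases with the microRNA gene Mir1905 on the opposite strand, and the strand setting of the counting was not given.

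Reg1 (ENSMUSG00000059654, chromosome 6, 78422711 to 78428667, plus strand) encodes a secreted C-type lectin that is made by pancreatic acinar cells and by regenerating gut epithelium. Responders were at 0.699, 2.54 and 2.97 CPM (lowest, median and highest), and non-responders 1 to 4 at 11.7, 6.27, 5.85 and 16.6 CPM. Every non-responder was above every responder, and the non-responders fell into a higher and a lower pair. The highest tumor, non-responder 4, had 550 counts and the lowest, responder 1, had 21. Group values were 2.10 ± 0.9998 CPM (SD, n = 6) against 10.1 ± 5.07 CPM (SD, n = 4), which gave a log2 fold change of -2.27 (SE 0.41). The call was lost without responder 3, non-responder 1 or non-responder 4, with log2 fold changes of -2.37, -2.19 and -1.91.

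The promoters of Mex3a and Reg1, the members whose groups did not overlap, are shown to compare the sequence at their RefSeq starts, together with that of the Reg1 paralog Reg3g, described next. Each is a RefSeq window of 300 bases on GRCm38.p6 (250 before and 50 after the start), read 5′ to 3′ on the strand of the gene, from chr3:88531696-88531995 (plus strand), chr6:78425733-78426032 (plus strand) and chr6:78468825-78469124 (minus strand). These starts differ from those of the GENCODE spans given above. The Mex3a window ends before its span begins at 88532395, and the Reg1 window lies inside its span of 78422711 to 78428667. What follows holds for the RefSeq starts only. Capitals mark CG dinucleotides in Mex3a, and TATAAA or CTTTGAT, on either strand, in Reg1 and Reg3g.
Mex3a: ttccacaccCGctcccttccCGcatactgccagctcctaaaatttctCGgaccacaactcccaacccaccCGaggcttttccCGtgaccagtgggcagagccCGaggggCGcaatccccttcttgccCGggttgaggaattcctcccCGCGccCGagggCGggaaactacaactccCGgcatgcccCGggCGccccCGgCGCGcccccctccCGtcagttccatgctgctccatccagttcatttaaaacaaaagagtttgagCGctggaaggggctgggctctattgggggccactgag
Reg1: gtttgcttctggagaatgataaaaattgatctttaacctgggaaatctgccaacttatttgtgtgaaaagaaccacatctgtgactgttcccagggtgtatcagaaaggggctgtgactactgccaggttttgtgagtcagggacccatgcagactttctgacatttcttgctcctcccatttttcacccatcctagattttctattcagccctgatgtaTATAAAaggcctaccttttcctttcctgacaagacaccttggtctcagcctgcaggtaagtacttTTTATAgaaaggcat
Reg3g: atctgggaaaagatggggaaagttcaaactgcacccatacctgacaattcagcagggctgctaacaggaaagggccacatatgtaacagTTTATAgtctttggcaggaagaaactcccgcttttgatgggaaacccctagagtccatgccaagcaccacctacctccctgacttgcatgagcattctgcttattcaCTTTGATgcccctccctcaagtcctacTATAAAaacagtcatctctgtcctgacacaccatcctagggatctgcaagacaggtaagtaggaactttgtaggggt
The Mex3a window held 20 CG dinucleotides, and 26.5% of 32851 promoter windows held at least as many. Reg1 had none, as did 5.43% of windows, and carried TATAAA 30 bases before its start. At least 1 TATAAA, on either strand, was present in 13.6% of windows. The letters CTTTGAA or CTTTGAT, matches to the site bound by TCF factors, were looked for on both strands and occur in 8.65% of windows. None of the 9 windows available for 7 members (Mex3a, Reg1, Lgr4, Prom1, Ascl2, Rnf43 and Axin2) held them, whereas Reg3g held CTTTGAT 54 bases before its start.

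Paralogs that could share reads with the members, or share their roles, were listed separately. Of 17 listed paralogs, 9 could be tested and 2 passed, Reg3g and Lgr6, both lower in responders. Reg3g, which encodes an antibacterial lectin of the gut, was at 1.77 ± 0.489 CPM in responders versus 5.28 ± 2.93 CPM in non-responders (edgeR log2 fold change -1.58 with SE 0.36, adjusted p = 0.0331). Its counts were 193 and 255 in non-responders 1 and 4, the tumors in which Reg1 was also highest, 84 in non-responder 3 and 53 in non-responder 2, which lay among the responders. Reg2, on the other hand, had 15 to 60 counts and did not pass (edgeR log2 fold change 0.44 with SE 0.37, adjusted p = 0.464). Reg3a, Reg3b, Reg3d and Reg4 had no count in any tumor. Lgr6, the R-spondin receptor of hair follicle and skin stem cells, was at 4.98 ± 1.43 CPM in responders versus 11.4 ± 5.25 CPM in non-responders (edgeR log2 fold change -1.20 with SE 0.32, adjusted p = 0.0446). Mex3b, Mex3c, Mex3d, Msi2, Znrf3 and Axin1 did not pass in edgeR, with log2 fold changes between -0.30 for Msi2 and 0.17 for Mex3b, and DESeq2 called Msi2 among them. Axin1 and Msi2 were the most abundant paralogs. The paralogs Sox8, Sox10 and Prom2 had at most 10 counts in any tumor.

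Sox9 (ENSMUSG00000000567, chromosome 11, 112782224 to 112787760, plus strand), a transcription factor of crypt progenitors and Paneth cells, was the third member with a clear level in these tumors. It was at 8.62, 19.2 and 23.6 CPM in responders (lowest, median and highest) and at 37.4, 21.2, 30.4 and 25.1 CPM in non-responders 1 to 4. Non-responders 1, 3 and 4 lay above all responders, and non-responder 2 lay inside their range. Group values were 18.0 ± 5.51 CPM (SD, n = 6), against 28.5 ± 7.02 CPM (SD, n = 4), which gave a log2 fold change of -0.66 (SE 0.24). Sox9 was not past the threshold in the edgeR fit and was past it in DESeq2.

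For Axin2 and Rnf43, the feedback genes of the Wnt pathway among the members, the groups overlapped. Axin2, which encodes a scaffold of the complex that degrades beta-catenin, was at 1.25, 1.46 and 1.90 CPM in responders and at 1.45, 1.83, 1.08 and 1.84 CPM in non-responders 1 to 4 (log2 fold change -0.06, SE 0.19). The highest tumor was a responder and the lowest a non-responder. Rnf43, whose product removes Wnt receptors, was at 0.825, 1.25 and 1.50 CPM and at 0.565, 0.971, 1.30 and 1.18 CPM (log2 fold change 0.29, SE 0.24). Its lowest value was in non-responder 1, with 14 counts. For Axin2 the estimate changed sign when single tumors were left out, over a range of -0.19 to 0.04.

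Of the R-spondin receptors, Lgr4 was measured well and Lgr5 hardly at all. Lgr4 was at 5.49, 6.08 and 6.94 CPM in responders and at 5.37, 6.50, 4.42 and 7.21 CPM in non-responders 1 to 4, so that the responders lay within the range of the non-responders (log2 fold change 0.06, SE 0.13). Lgr5 had 6, 0, 8, 4, 4 and 8 counts in responders 1 to 6 and 3, 8, 1 and 2 counts in non-responders 1 to 4. The count of 0 in responder 2 allows up to 0.0936 CPM (3 counts, counting error only). Ascl2 had 5, 8, 8, 3, 4 and 14 counts in responders and 6, 3, 5 and 10 counts in non-responders. Fitted without the filter, the log2 fold change was 0.23 for Lgr5 (SE 0.70) and -0.05 for Ascl2 (SE 0.44), errors within which a small difference could not be seen.

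Msi1 and Prom1 complete the set. Msi1, which encodes the RNA-binding protein Musashi-1, was at 0.627, 0.817 and 1.09 CPM in responders and at 0.686, 0.784, 0.867 and 1.09 CPM in non-responders 1 to 4 (log2 fold change -0.05, SE 0.20). Prom1, which encodes the membrane glycoprotein CD133, was at 0.688, 0.813 and 1.50 CPM and at 0.363, 0.821, 0.694 and 0.754 CPM (log2 fold change 0.47, SE 0.29). The groups overlapped for both genes, and the lowest Prom1 value, 9 counts, was in non-responder 1. Exons of Prom1 and Axin2 share 424 and 209 bases with genes on the opposite strand.

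**Figure D2:**
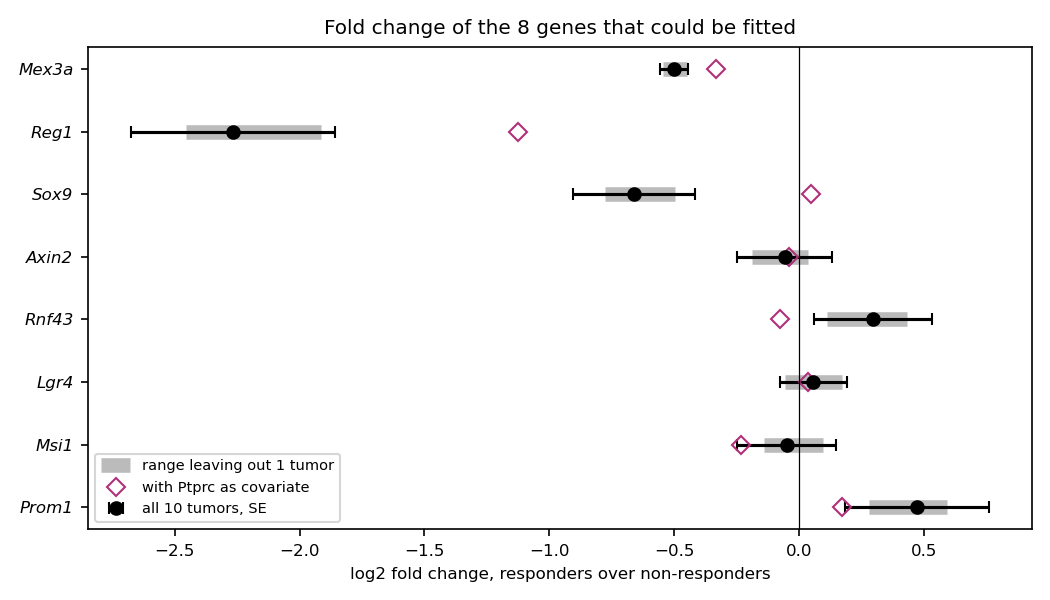
Log2 fold change of responders over non-responders (horizontal axis) for the 8 members tested, with the estimate over 10 tumors ± SE (black), the range of estimates when 1 tumor was left out (grey) and the estimate with Ptprc as a covariate (open diamonds). Mex3a stands at -0.50 with the shortest error bar, Reg1 at -2.27 with the longest, and the Ptprc covariate brings Sox9 to 0.05.

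Compared per kilobase of annotated exon, the members fell into a high and a low set. Mean levels over the 10 tumors were 7.58 CPM per kb for Mex3a, 5.86 for Reg1, 5.37 for Sox9 and 1.02 for Lgr4. They were 0.276 for Axin2, 0.174 for Rnf43, 0.145 for Msi1, 0.132 for Ascl2, 0.113 for Prom1 and 0.0141 for Lgr5. Across tumors, Reg1 ranged from 0.773 to 18.4 CPM per kb and Sox9 from 2.08 to 9.04, against 6.08 to 10.2 for Mex3a, which lies within the range of Reg1 and overlaps that of Sox9, so the order of these 3 is not fixed. Lgr4 reached 1.23 at most, below every tumor's Mex3a and Sox9. From Axin2 down to Prom1, neighbors in this order overlapped across tumors, while Lgr4 lay above all of them (at least 0.752) and Lgr5 below (at most 0.0291). Lgr5 and Ascl2, which did not pass the filter, were near the floor in tumors where Mex3a was plainly measured. Other crypt stem cell genes differed widely in level. Olfm4 and Smoc2 were at 1.22 and 3.12 mean CPM, and Slc12a2 and Rgmb at 98.4 and 166.3. The name "intestinal stem cell genes" describes where the members are known from, not the cells of these tumors.

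Markers of the labeled cell type, a colorectal carcinoma, were mostly low as well. Of 16 genes of colon epithelial identity, 8 (Vil1, Cdx1, Hnf4a, Krt18, Cldn3, Cldn4, Cldn7 and Phgr1) had under 10 counts in every tumor, and Epcam had 3 to 19 counts. The most abundant was Krt20, at 29.1 ± 9.80 CPM in responders versus 52.9 ± 18.5 CPM in non-responders, followed by Lgals4, at 5.44 ± 0.662 versus 5.33 ± 0.645 CPM. Cdh1 and Cdh17 had similar levels, at 4.15 ± 1.31 versus 5.996 ± 1.04 CPM and 4.05 ± 0.906 versus 4.56 ± 0.394 CPM. Of the 6 tested genes of this list, 5 had a lower estimate in responders and 0 passed by edgeR. Over the 54 genes of epithelial identity and of the absorptive, goblet, Paneth, enteroendocrine and tuft lineages, 29 had under 10 counts in every tumor, 18 could be tested and 0 passed by edgeR, with 4 at an unadjusted p under 0.05. DESeq2 called 2 of them, Cdx2 (log2 fold change -0.96) and Anpep (log2 fold change 0.27), and edgeR called Krt20 once non-responder 2 was left out (log2 fold change -1.04). Among the most abundant genes of these lists were also Car4, Lyz1, Itln1, Chga and Dclk1, the last at 93.5 ± 6.19 versus 90.0 ± 9.53 CPM.

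Covariation between members was examined within groups, after subtracting the mean of each group, a measure that the contrast does not enter. Over 66 relations (45 pairs of members, and each member or Ptprc against library depth or Ptprc), exact permutation within groups gave 1 that passed after adjustment. Axin2 and Lgr4 rose and fell together (Pearson's r = 0.93, exact permutation p = 0.000637, adjusted p = 0.042; Spearman's rho = 0.95, exact permutation p = 0.000405, adjusted p = 0.0267; n = 10). Without the pair of tumors most distant from the Lgr4 median (non-responders 3 and 4), r was 0.91. Both genes were also higher in deeper libraries (r = 0.78 for Axin2 and 0.86 for Lgr4 with log2 library total, exact permutation p = 0.0188 and 0.00498, adjusted p = 0.275 and 0.164; rho = 0.82 and 0.87, exact permutation p = 0.0113 and 0.00833, adjusted p = 0.248 for both). Without non-responder 3 and responder 6, the libraries with the farthest totals, these r were 0.60 and 0.83. With the library total regressed out, r between Axin2 and Lgr4 was 0.82. Among the 45 pairs, 22 correlations were positive and 23 negative, with a median r of -0.03.

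Leukocyte content, by most of its markers, moved with the contrast. Ptprc, the pan-leukocyte gene CD45, was at 326.2 to 499.3 CPM in responders and 181.1 to 307.5 CPM in non-responders. The summed level of 9 leukocyte markers was 1111 to 1769 CPM in responders and 777.5 to 1080 CPM in non-responders, without overlap, and 4 of the 9 (Ptprc, Nkg7, Adgre1 and Itgam) passed, all higher. Estimates of Cd79a and S100a8 were slightly lower in responders (edgeR log2 fold change -0.09 for both, adjusted p = 0.830 and 0.910). Csf1r was the most abundant of the 9, at 484.0 ± 54.2 versus 410.3 ± 48.5 CPM, ahead of Ptprc. Within groups, Mex3a was lower where Ptprc was higher (r = -0.85, exact permutation p = 0.00862, adjusted p = 0.19; rho = -0.70, exact permutation p = 0.0681, adjusted p = 0.57), and r was -0.54 without non-responder 1 and responder 5, so the relation rests in part on those tumors and did not pass after adjustment. For Sox9 r was -0.72 (exact permutation p = 0.025, adjusted p = 0.275; rho = -0.59, exact permutation p = 0.0957, adjusted p = 0.57), and -0.04 without the same tumors. With Ptprc as a covariate the log2 fold change of Mex3a was -0.34 (SE 0.06), that of Reg1 -1.13 (SE 0.53) and that of Sox9 0.05 (SE 0.30), and no gene in the table passed. Because Ptprc did not overlap between the groups, leukocyte content and response cannot be told apart here. In bulk tumor, fewer cells of a type and less RNA per cell cannot be told apart either.

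**Figure D3:**
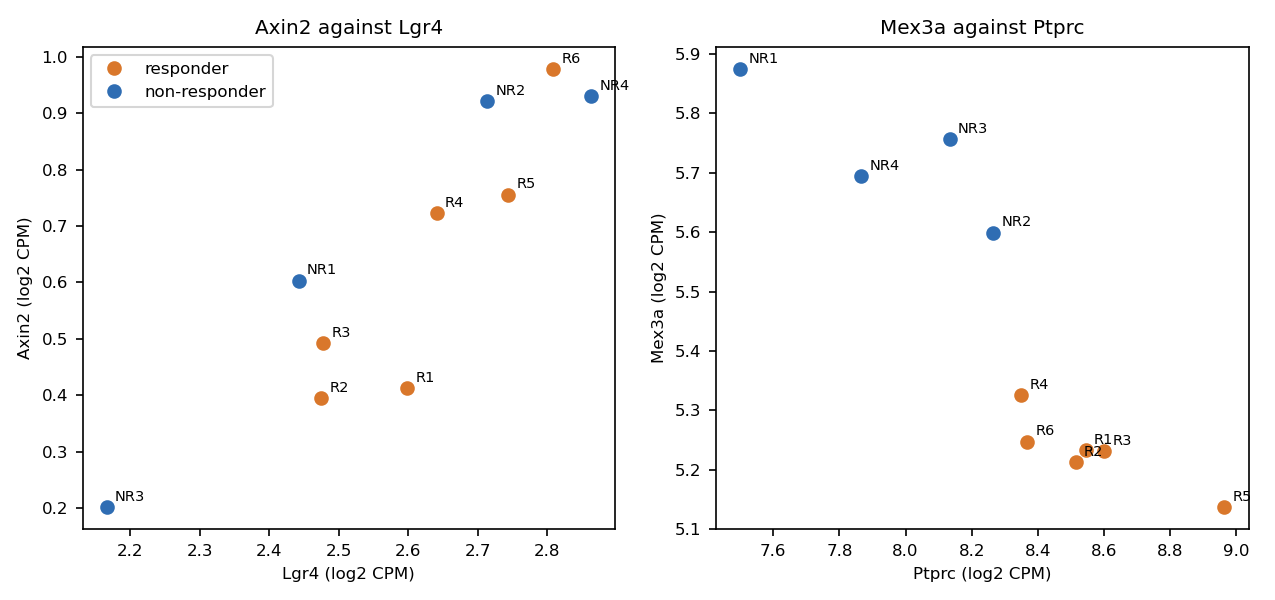
Log2 CPM of Axin2 against Lgr4 (left) and of Mex3a against Ptprc (right) in each tumor, responders (R) in orange and non-responders (NR) in blue, numbered as in the text. Axin2 and Lgr4 rise together across both groups, and Mex3a is high in the 4 non-responders, where Ptprc is at most 307.5 CPM, and low in the 6 responders, where it is at least 326.2 CPM.

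Markers of other cells the resected piece could hold were read in the same way. The summed level of 6 skeletal muscle markers was 484.6 to 1313 CPM in responders and 353.4 to 475.3 CPM in non-responders, and 3 of the 6 (Acta1, Myh1 and Ckm) passed as higher, with Acta1 and Myh4 the most abundant. Of 8 fibroblast markers, Fap and Pdgfrb passed as lower in responders, and the summed levels overlapped (5720 to 6792 against 4964 to 7947 CPM), with Col3a1 and Col1a2 the most abundant. Of 4 adipocyte markers tested 0 passed by edgeR, with 4 at an unadjusted p under 0.05 and 4 called by DESeq2, and Fabp4, the most abundant ahead of Plin1, was at 24.0 ± 9.07 versus 11.3 ± 3.47 CPM. Of 5 endothelial markers 0 passed by edgeR, with 0 at an unadjusted p under 0.05 and 0 called by DESeq2, and Pecam1 and Cdh5 were the most abundant. Of 9 markers of acinar cells, which also make Reg1, 7 (Cpa1, Cpb1, Cela2a, Pnlip, Ctrb1, Amy2a5 and Ptf1a) had under 10 counts in every tumor. The sum of all 9 was nonetheless lower in responders, as Reg1 was, at 3.44 to 4.33 CPM against 4.59 to 5.40 CPM without overlap. Most of it was Cela1, at 3.39 ± 0.349 versus 4.36 ± 0.412 CPM, which did not pass in edgeR (log2 fold change -0.36 with SE 0.11, adjusted p = 0.0652) and was called by DESeq2, and Prss2 was next, at 0.208 versus 0.341 CPM. Skin and hair follicle markers, cells in which Lgr6, Lgr5 and Sox9 are also found, summed to 3.30 to 5.71 CPM in 9 tumors and to 26.6 CPM in non-responder 2, where Krt71 had 369 counts. Krt71 and Krt10 had the highest means of this list, and Lhx2, Krt15, Lor and Krt1 had under 10 counts in every tumor. Of the 2 skin markers tested, Krt10 and Trp63, 0 passed by edgeR. Trp63 was at 1.47 ± 0.634 CPM in responders versus 0.624 ± 0.235 CPM in non-responders (edgeR log2 fold change 1.24 with SE 0.37, adjusted p = 0.0605). DESeq2 called it as higher. Non-responder 2 was the lowest non-responder for Mex3a, Sox9 and Lgr6, the last at 5.26 CPM. It had the highest Lgr5 level of the 10 tumors, 0.299 CPM, from 8 counts, as many as in responders 3 and 6. Of the nerve markers, Nefm and Nefl passed as lower in responders, Tubb3 and Mbp were the most abundant, and Elavl4 had under 10 counts in every tumor. Of 6 markers of cycling cells 0 passed by edgeR (2 at an unadjusted p under 0.05 and 2 by DESeq2), and they summed to 1719 to 1928 CPM and 1794 to 1934 CPM, overlapping, with Top2a and Mki67 the most abundant. The part of these cells in the differences was not tested.

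The rest of the Wnt pathway was taken, with earlier results of these data known, from 6 lists of 100 genes with the members left out. Of these, 73 were tested and 10 (13.7%, against 8.06% of all genes) differed between the groups, 5 higher and 5 lower in responders, with a median log2 fold change of -0.03. This count fell to 0 without non-responder 1 or 4 and to 1 without responder 3, and it was 6, 3, 5 and 5 without responders 1, 2 and 5 and non-responder 3.

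Among the ligands, 0 of 9 tested passed by edgeR (1 at an unadjusted p under 0.05, and 1 by DESeq2, Wnt10b), and 8 of the 19, Wnt3 and Wnt3a among them, had under 10 counts in every tumor. Wnt10a and Wnt5a were the most abundant, at 28.6 ± 3.84 versus 33.8 ± 8.62 CPM and 11.4 ± 0.764 versus 9.99 ± 1.37 CPM (responders first). Of the receptors and R-spondin module, 3 of 18 passed. The Wnt receptor gene Fzd1 was higher in responders, at 11.9 ± 2.60 versus 6.85 ± 1.02 CPM (edgeR log2 fold change 0.80 with SE 0.17, adjusted p = 0.0304). Fzd3 was lower, at 6.41 ± 0.947 versus 10.8 ± 1.05 CPM, and its groups did not overlap (edgeR log2 fold change -0.75 with SE 0.12, adjusted p = 0.0207). The other called gene was Lgr6, given above. Lrp6 and Ptk7, the most abundant of this list, did not pass in edgeR (edgeR adjusted p = 0.0750 for Lrp6 and 0.143 for Ptk7). DESeq2 called Lrp6, as lower in responders, and not Ptk7. Znrf3, the partner of Rnf43, was at 19.1 ± 1.16 versus 19.4 ± 0.916 CPM (edgeR log2 fold change -0.02 with SE 0.06, adjusted p = 0.852).

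Of the secreted or membrane inhibitors, 3 of 8 passed and the groups did not overlap for any of them. Sfrp1, a decoy for Wnt ligands, was at 2.81 ± 1.005 CPM in responders versus 1.06 ± 0.330 CPM in non-responders (edgeR log2 fold change 1.41 with SE 0.31, adjusted p = 0.0310). Apcdd1, an inhibitor and Wnt target, was lower in responders, at 162.7 ± 21.8 versus 233.9 ± 18.6 CPM (edgeR log2 fold change -0.52 with SE 0.10, adjusted p = 0.0235). Kremen1, a receptor for Dkk proteins, was lower as well (edgeR log2 fold change -0.29 with SE 0.07, adjusted p = 0.0401). The most abundant inhibitor, besides Apcdd1, was Dkk2, at 127.1 ± 19.6 versus 134.3 ± 19.1 CPM.

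Inside the cell, 1 of 17 transducers passed, the kinase gene Csnk1e, which was lower in responders (edgeR log2 fold change -0.29 with SE 0.08, adjusted p = 0.0484). Ctnnb1, which encodes beta-catenin, was at 480.4 ± 24.1 versus 489.2 ± 2.65 CPM (edgeR log2 fold change -0.03 with SE 0.05, adjusted p = 0.745), and Csnk1a1, the next in abundance, at 257.7 ± 7.04 versus 254.8 ± 8.82 CPM. Of the TCF factors and cofactors, 2 of 13 passed, both higher in responders and without overlap. The factor gene Tcf7l2 was at 39.5 ± 3.02 versus 28.0 ± 2.26 CPM (edgeR log2 fold change 0.50 with SE 0.07, adjusted p = 0.0194), and the corepressor gene Tle4 at 19.6 ± 2.49 versus 14.6 ± 1.58 CPM (edgeR log2 fold change 0.43 with SE 0.11, adjusted p = 0.0383). Tle3 and Bcl9l, the most abundant of this list, did not pass (edgeR adjusted p = 0.650 for Tle3 and 0.345 for Bcl9l). Of 8 target genes tested, Id2 passed as higher (edgeR log2 fold change 0.50 with SE 0.13, adjusted p = 0.0461). Ccnd1 and Jun, the most abundant targets, were at 979.1 ± 44.1 versus 925.6 ± 35.1 CPM and 155.3 ± 38.2 versus 136.1 ± 14.7 CPM and did not pass, and 4 targets, Nkd1 among them, had under 10 counts in every tumor.

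**Figure D4:**
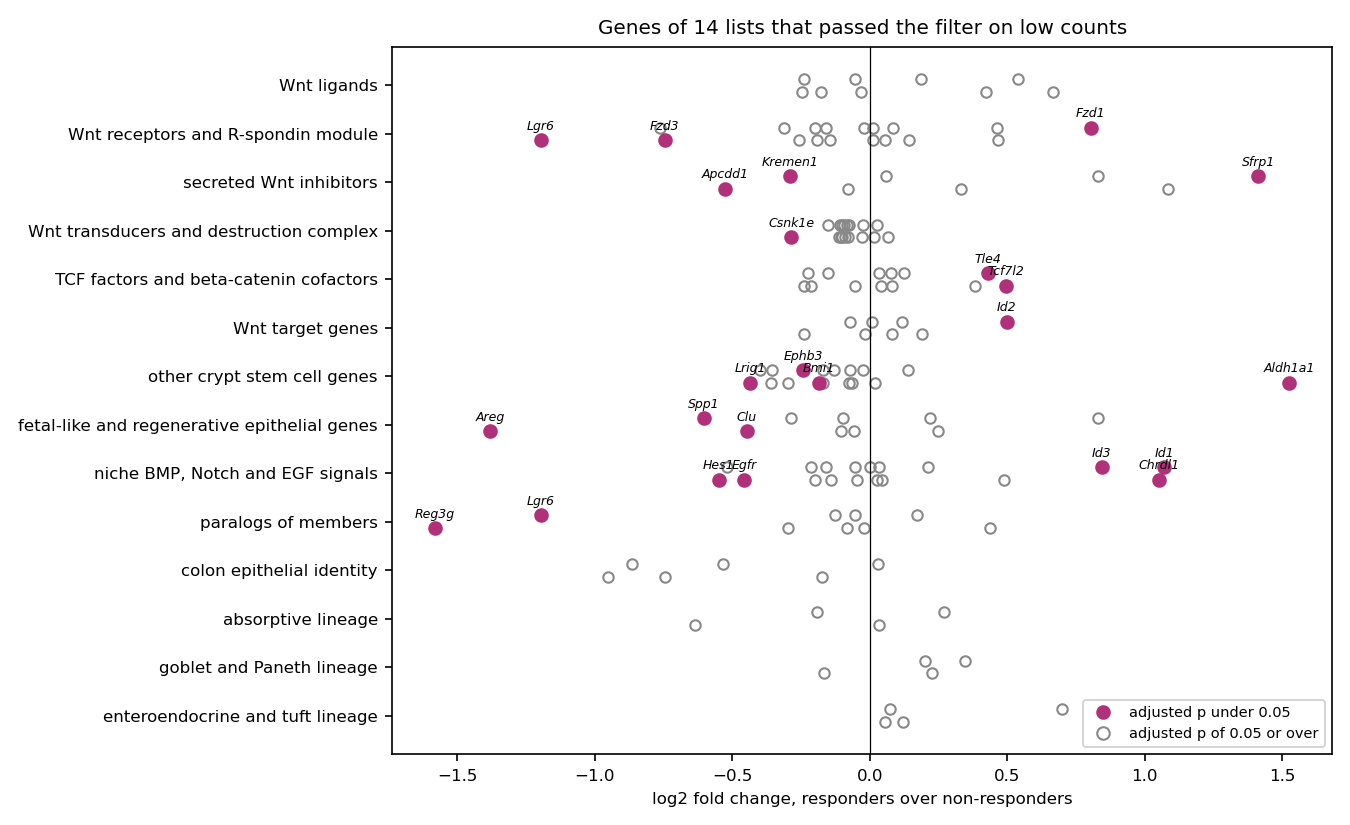
Log2 fold change of responders over non-responders (horizontal axis) for each tested gene of 14 lists (rows), with genes past an edgeR adjusted p of 0.05 filled and named. Called genes lie on both sides of 0 in the Wnt receptor, inhibitor, crypt and niche rows, and the 4 rows of epithelial identity and lineage hold none.

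Other genes of the crypt and its niche were taken, again with earlier results known, from 4 lists, the paralogs included. Of 69 names, 66 were in the file (3 were older symbols of listed genes), 53 were tested and 14 passed (26.4%, against 8.06% of all genes), 4 higher and 10 lower in responders, with a median log2 fold change of -0.08. The count fell to 0 without responder 3 or non-responders 1, 3 or 4, and it was 6, 1, 2 and 5 without responders 1, 2, 5 and 6. The shares of the Wnt and the crypt lists are given as a description, and Lgr6 is counted in both.

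Among 17 other stem cell genes tested, Lrig1, a brake on EGF receptor signaling, was at 221.3 ± 25.7 CPM in responders versus 299.0 ± 38.7 CPM in non-responders (edgeR log2 fold change -0.43 with SE 0.10, adjusted p = 0.0331). Ephb3, a receptor that positions crypt cells (edgeR log2 fold change -0.24 with SE 0.06, adjusted p = 0.0381), and Bmi1, a Polycomb gene (edgeR log2 fold change -0.18 with SE 0.04, adjusted p = 0.0345), were also lower. Aldh1a1 was higher, at 4.65 ± 1.25 versus 1.61 ± 0.993 CPM (edgeR log2 fold change 1.53 with SE 0.33, adjusted p = 0.0310). The groups did not overlap for any of these 4. Cd44 and Cdk6, the most abundant of the list, did not pass (edgeR adjusted p = 0.493 for Cd44 and 0.428 for Cdk6).

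Of 10 fetal-like and regenerative genes tested, 3 passed, all lower in responders, while 7 estimates were lower and 3 higher. Ly6a had the highest estimate and did not pass (edgeR log2 fold change 0.83 with SE 0.33, adjusted p = 0.124). It was at 388.1 ± 57.3 CPM in responders versus 218.2 ± 119 CPM in non-responders, and the groups overlapped. Areg, an EGF receptor ligand, was at 2.64 ± 0.924 versus 6.88 ± 2.94 CPM (edgeR log2 fold change -1.38 with SE 0.31, adjusted p = 0.0327). Spp1, which encodes osteopontin and is also made by macrophages, was at 2538 ± 395.5 versus 3852 ± 630.8 CPM (edgeR log2 fold change -0.60 with SE 0.13, adjusted p = 0.0310), and Clu, the marker of revival stem cells, at 80.4 ± 6.73 versus 109.6 ± 15.4 CPM (edgeR log2 fold change -0.45 with SE 0.09, adjusted p = 0.0264). Anxa1 did not pass (edgeR adjusted p = 0.769).

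Of 18 niche genes tested, 5 passed, and the groups overlapped for each of them. Id1 (edgeR log2 fold change 1.07 with SE 0.26, adjusted p = 0.0364) and Id3 (edgeR log2 fold change 0.84 with SE 0.22, adjusted p = 0.0432), targets of BMP signaling, were higher in responders, as was the BMP antagonist Chrdl1 (edgeR log2 fold change 1.05 with SE 0.28, adjusted p = 0.0456). The Notch target Hes1 (edgeR log2 fold change -0.55 with SE 0.15, adjusted p = 0.0453) and the receptor gene Egfr (edgeR log2 fold change -0.46 with SE 0.11, adjusted p = 0.0334) were lower. Grem1, the BMP antagonist of the crypt base, was the most abundant niche gene, at 239.0 ± 29.2 versus 274.2 ± 50.1 CPM, followed by Notch2, at 180.0 ± 6.77 versus 179.8 ± 18.8 CPM. Neither passed (edgeR adjusted p = 0.305 for Grem1 and 0.984 for Notch2).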

How the data were processed

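Per the labels and the study's methods, the authors reviewed reads with FastQC, estimated transcript abundance with Kallisto and summed it to genes with tximport on mm10 (GRCm38). What was deposited is a table of expected counts, unscaled for depth, from which CPM were computed here. The annotation release, tximport scaling and strand setting were not given in the sources used here, and reads shared by paralogs are split by estimation. Groups follow the response label. Counts were rounded, filtered with filterByExpr (minimum count 10, minimum total 15), scaled by TMM and tested with edgeR 4.0.16 in R 4.3.3 (quasi-likelihood, two-sided, Benjamini-Hochberg over 16041 genes, threshold 0.05). The members and gene lists were chosen with earlier results of these data known. Named were all members, per list the called genes (at most 3 per direction) and the 2 most abundant genes, the genes most like Mex3a and Reg1, and per marker list genes under 10 counts and the 2 most abundant; those further named were chosen after their values were seen. Coordinates are from GENCODE M21. Alternatives were DESeq2 1.42.0, RLE factors, other filters and thresholds, a Ptprc covariate and leaving out single tumors. Nothing in the labels says that a tumor was sampled more than once, and each is taken as 1 mouse. The edgeR script was tested on simulated data.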

Additional observations from a re-analysis of the deposited data

Results flagged for a closer look

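Of 20 groups of values examined (10 members in 2 groups), 1 held a tumor far from the rest, where chance gives about 1. Prom1 was at 1.50 CPM in responder 2, and the other responders were at 0.688 to 0.992 CPM, a gap of 0.62526 of the range of the group, just above the critical value for 6 samples.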

How the results depend on the processing

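The directions of Mex3a, Reg1 and Prom1 held in 15 of 15 alternatives, those of Sox9, Lgr4 and Rnf43 in 14 and those of Axin2 and Msi1 in 13. RLE factors and the filter that the study described for its time-course data left every count within 1.5 times. Without a filter, 299 genes were called as lower. With the Ptprc covariate 0 genes were called in any direction (845 at an unadjusted p under 0.05), hence 0 members and 0 genes of the Wnt and crypt lists, and the cause was not tested. DESeq2 called 2575 genes, 1542 higher and 1033 lower, and 2 lineage genes. An adjusted p under 0.1 gave 2999 genes, 1690 higher and 1309 lower. When 1 tumor was left out, calls ranged from 0 to 1897 genes (0 to 1148 higher, 0 to 749 lower), 0 to 2 members, 0 to 12 Wnt, 0 to 13 crypt and niche and 0 to 1 lineage genes. The lowest was without non-responder 4, where 4106 genes had an unadjusted p under 0.05. The Epcam covariate was not run, as Epcam had under 10 counts in some tumors. Lgr5 and Ascl2 could be fitted only without the filter. No paired analysis was run, since the groups are taken as different mice and the labels carry no pairing.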

Other observations

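The genes most like Mex3a were sought by Pearson's r of log2 CPM over the 10 tumors, after subtracting group means, among 13732 other genes at 1 CPM or more. They were Nmnat2 (0.99), Pxdn (0.97), Pls3 (0.97), Parvb (0.97) and Pdzd8 (0.97), and they are the extremes of many comparisons, given as a description. Nmnat2, which encodes an enzyme of NAD synthesis in neurons, was at 9.33 CPM in responders and 17.3 CPM in non-responders. Without subtracting group means the 5 nearest were Antxr2, Nefl, Jup, Prl and Nefm, and 0 of the 5 were shared. For Reg1 they were Zfp358 (0.96), Evc2 (0.95), Anapc5 (0.94), BC003965 (0.94) and Rplp0 (0.92), and 1 was shared, Evc2.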
